A study of Mus musculus with 6 samples.

Results

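Nuclear genes for the subunits of the mitochondrial respiratory chain were followed in bulk RNA sequencing of mouse distal colon. Members were all protein-coding rows outside the mitochondrial chromosome whose symbols begin with Nduf (a, b, c, s or v series), Uqcr, Cox4 to Cox8 or Atp5, or are Sdha, Sdhb, Sdhc or Sdhd. The rule used symbols only and no measured value. It found 85 rows among the 54532 genes of the table: 35 for complex I, 4 for complex II, 8 for complex III, 20 for complex IV and 18 for complex V. Ndufa4 and its paralog Ndufa4l2 were placed with complex IV. Reads were present for 82 of the 85 in at least 1 library, and 81 passed the filter on low counts and were tested.

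The study compared 3 libraries from wild-type mice (WT 1 to WT 3) with 3 from mice labelled Itgbl1 -/- (KO 1 to KO 3). All mice of both groups drank water with 3% dextran sulfate sodium (DSS, 36 to 50 kDa), a polymer toxic to the lining of the colon, and were sampled after 7 days. No source used here gives the strain, age or sex or says how the allele was made, and samples without DSS were not analysed here. Nothing says that replicates came from separate animals, and the spread that p-values measure may be technical.

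Total counts lay between 13326970 and 18321389 per library. Itgbl1 itself was low, with 19, 6 and 5 reads in the WT libraries and 12, 4 and 10 in the KO libraries, a log2 ratio of -0.19 and a 95% interval from -2.00 to 1.63 (edgeR quasi-likelihood, adjusted p = 0.900). Loss of its transcript was therefore not detectable at this depth, so WT and KO stand for the labels of the libraries throughout. Levels are given in CPM, counts scaled to a common library total after TMM, edgeR's correction for library composition, and a log2 ratio is always KO over WT.

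The respiratory chain passes electrons from NADH (complex I) or succinate (complex II) through coenzyme Q to complex III, then by cytochrome c to complex IV, which reduces oxygen. Proton pumping by complexes I, III and IV drives ATP synthesis by complex V. Most subunits are encoded in the nucleus, while the hydrophobic core of every complex but II is completed by subunits encoded in mitochondrial DNA. Colonocytes, the absorptive cells at the colon surface, are known for oxidising butyrate in their mitochondria. Nuclear subunit genes are known targets of the factors NRF1, GABPA, YY1 and the ERR receptors, with the coactivator PGC-1α.

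Promoter windows from RefSeq (GRCm38.p6, 250 bases before to 50 after each start) were found for 65 of the 82 member symbols with reads, as 70 windows. The NRF1 motif GCGCATGC, on either strand, was in 14.3% of these windows against 2.71% of all 32851 windows of that table. The sites are shown because the motif is the most frequent of those searched and its genes come from all 5 complexes. The ERR site of Atp5g3 is shown as well, and that of Sdhd is not. Each is 30 bases on the gene's own strand, with the motif in capitals; where both strands match, the capitals cover both overlapping matches.
Ndufa6, complex I (chr15:82354356-82354385, minus strand): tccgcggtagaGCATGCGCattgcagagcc
Ndufa11, complex I (chr17:56717692-56717721, plus strand): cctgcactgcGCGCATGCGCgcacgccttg
Sdhb, complex II (chr4:140961206-140961235, plus strand): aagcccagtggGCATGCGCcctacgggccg
Uqcr11, complex III (chr10:80406807-80406836, minus strand): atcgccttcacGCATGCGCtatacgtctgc
Cox6a1, complex IV (chr5:115349101-115349130, minus strand): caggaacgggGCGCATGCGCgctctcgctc
Atp5k, complex V (chr5:108434430-108434459, minus strand): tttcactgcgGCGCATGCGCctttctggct
Atp5g2, complex V (chr15:102671070-102671099, minus strand): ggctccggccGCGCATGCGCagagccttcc
Atp5g3, complex V, ERR motif (chr2:73911359-73911388, minus strand): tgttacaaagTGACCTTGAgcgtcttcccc

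In all, 10 genes held the NRF1 motif, the others being Atp5l, Ndufa8 and Uqcrc1, and 9 of the 10 sites began before the annotated start, 7 of them within 100 bases. The YY1 motif AAGATGGCG was in 10% of member windows against 1.40% of all, the GABPA motif CCGGAAGT in 7.14% against 3.89%, and the ERR motif TCAAGGTCA in 2.86% (Atp5g3 and Sdhd) against 0.423%. Matches of different motifs overlapped in 0 member windows. The 10 members with the NRF1 motif had a median log2 ratio of -0.84, and the 55 tested members with a window but no match had -0.67. Medians were -0.30 for the 5 members with the GABPA motif and -0.64 for the 7 with YY1, each beside -0.67 without. For the 2 members with the ERR motif the median was -1.07, beside -0.67 without. Log2 ratios of the genes with the NRF1 letters ran from -1.42 (Cox6a1) to -0.08 (Atp5l), so members with the same motif did not share 1 size of difference. A match is a description of letters in the window, not a measured binding site.

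Transcripts of the respiratory chain were lower in most members under the knockout label, and no member passed the adjusted threshold. Of the 81 tested, 72 had a negative log2 ratio (88.9%), beside 46.9% of all genes tested. The median was -0.69 for the members and 0.06 for all genes (-0.54 and 0.21 with upper-quartile scaling). At an unadjusted p under 0.05, 23 members were lower (28.4%, beside 12.3% of the 16861 genes tested) and 1 was higher, Cox6b2 (beside 11.8%); over both directions that share was 24.1% of all genes, or 4059. Adjusted over the whole table with edgeR's quasi-likelihood test, 0 genes passed (0%), and the smallest adjusted p of a member was 0.101, for Cox5a. DESeq2 called 2029 of 30888 genes and 7 of 82 members. With limma-voom none was called, and with its quality weights 1395 of 16861 genes and 5 of 81 members.

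The groups did not overlap, with every KO library below every WT library, for 30 members (37.0%, beside 17.3% of all genes). With upper-quartile scaling this held for 20 of the 81, and the share of all genes was not computed for that scaling. With TMM scaling, groups did not overlap in the other direction for 2 members, Cox6b2 and Cox4i2 (beside 15.0% of all genes).

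The counts depend on single libraries. Members were lower at an unadjusted p under 0.05 in 5 cases without WT 2, in 9 without KO 1, in 9 without KO 3, in 12 without WT 3, in 20 without WT 1 and in 46 without KO 2. As a share this was 6.17% of members without WT 2, beside 7.71% of all genes in that fit, and 11.1% beside 10% without KO 1. It was 11.1% beside 10.3% without KO 3 and 14.8% beside 8.31% without WT 3. The share was 24.7% beside 10.4% without WT 1 and 56.8% beside 17.4% without KO 2. The median log2 ratio stayed negative in each of these fits, at -0.47 without WT 2, -0.45 without KO 1 and -1.07 without KO 2. With neither WT 2 nor KO 1, a fit added after the data had been seen, 55 of 81 ratios were negative, the median was -0.20 and 1 member was lower at an unadjusted p under 0.05 (1.23%, beside 5.68% of all genes).

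**Figure D1:**
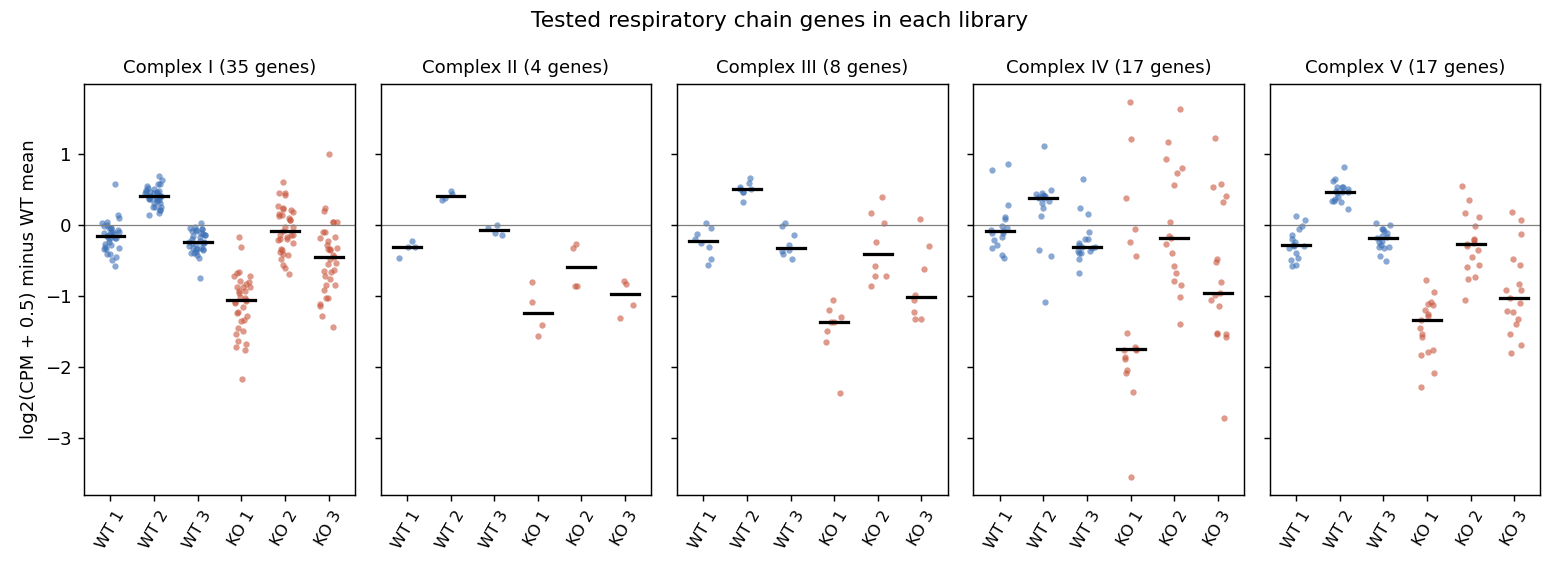
Each point is 1 tested gene; the y axis is log2(CPM + 0.5) minus the gene's mean over the 3 WT libraries, the panels are the 5 complexes, blue is WT, red is KO, and black bars are medians. By the medians, KO 1 is lowest in every panel and WT 2 is highest. Of the KO libraries, KO 2 lies nearest to WT 1 and WT 3.

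By median deviation, WT 2 was highest, KO 1 lowest and KO 3 next to lowest in every complex. The order of WT 1, WT 3 and KO 2 differed between complexes. KO 2 was above WT 1 and WT 3 in complex I, at -0.09. It was below both in complex II, at -0.60, and in complex III, at -0.41. The median deviation of the 81 members from their WT mean, on the log2(CPM + 0.5) scale, was -0.18 in WT 1, 0.41 in WT 2, -0.24 in WT 3, -1.26 in KO 1, -0.20 in KO 2 and -0.77 in KO 3. KO 1 was the lowest of the 6 libraries for 69 members (85.2%), beside 13.9% of all genes tested. WT 2 was the highest for 67 members (82.7%), beside 23.7% of all genes. KO 2 was the lowest library for no member, beside 12.6% of all genes. Of the 81 members, 38 had their KO 2 level within the range of the 3 WT libraries, beside 5724 of the 16861 genes tested.

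Summed over the 85 members, the level was 12508, 19612 and 12706 CPM in WT 1 to WT 3 and 5763, 11721 and 8731 CPM in KO 1 to KO 3. The 3 KO sums lay below the 3 WT sums, but KO 2 was closer to WT 1 than WT 1 was to WT 2.

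Complex I, the NADH dehydrogenase, had the smallest median difference of the 5 complexes, a log2 ratio of -0.55 over 35 genes, with 32 negative. Of the 35, 5 were lower at an unadjusted p under 0.05 (14.3%, beside 12.3% of all genes tested) and 7 had lower groups that did not overlap (20.0%, beside 17.3%). Its nuclear core subunits carry the flavin and iron-sulfur clusters, and the accessory subunits surround that core. The 7 core genes had a median of -0.48 and the 28 accessory genes -0.59.

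Ndufs1, which carries iron-sulfur clusters of the NADH-oxidising N module, was at 67.7, 124 and 86.8 CPM in WT and at 48.6, 55.3 and 65.2 CPM in KO. Its groups did not overlap, and its log2 ratio was -0.72 ± 0.291 (SE; adjusted p = 0.192). Ndufv1, the subunit that binds NADH and flavin, was at 82.2, 169 and 105 CPM in WT and at 68.5, 89.5 and 96.6 CPM in KO. Both KO 2 and KO 3 lay above WT 1, with a log2 ratio of -0.48 ± 0.332 (adjusted p = 0.403).

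In the Q module, which passes electrons to coenzyme Q, the 4 core genes had a median of -0.27 and none had separate groups. Ndufs7, which holds the last iron-sulfur cluster before coenzyme Q, was at 89.4, 138 and 96.2 CPM in WT and at 57.5, 110.4 and 98.5 CPM in KO. Its KO range overlapped the WT range, and its log2 ratio was -0.28 ± 0.330 (adjusted p = 0.627).

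Among accessory genes, Ndufa6, a small N module subunit, had the lowest ratio of complex I, -1.23 ± 0.458 (adjusted p = 0.167). Its levels were 201, 298 and 158 CPM in WT and 46.4, 138 and 95 CPM in KO, with no overlap. Ndufb9, in the membrane arm, had the smallest p of complex I, with 77.3, 111 and 67.4 CPM in WT and 26.4, 61.7 and 33.7 CPM in KO. Its groups also did not overlap, and its log2 ratio was -1.07 ± 0.379 (adjusted p = 0.159).

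Complex II, succinate dehydrogenase, links the TCA cycle to the chain and is the only complex with no subunit from mitochondrial DNA. It was the only complex whose genes all had groups that did not overlap, 4 of 4 (beside 17.3% of all genes). Of the 4, 2 were lower at an unadjusted p under 0.05 (50.0%, beside 12.3% of all genes tested). The median log2 ratio of complex II was -0.96. Sdha, the flavin subunit that oxidises succinate, was at 216, 414 and 298 CPM in WT and at 170.1, 165 and 119.7 CPM in KO, a mean 2.04 times higher in WT. Here KO 3 and not KO 1 was lowest, and the log2 ratio was -1.03 ± 0.350 (adjusted p = 0.149).

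Sdhb, the iron-sulfur subunit whose promoter site is shown above, was at 146, 223 and 155 CPM in WT and at 64.2, 142 and 77.9 CPM in KO. KO 2 came just under WT 1, and the log2 ratio was -0.88 ± 0.378 (adjusted p = 0.210). The membrane anchors that hold the coenzyme Q site, Sdhd and Sdhc, had log2 ratios of -1.09 ± 0.341 and -0.73 ± 0.319. Sdhd was at 165, 277 and 189.7 CPM in WT and at 69.0, 113 and 115 CPM in KO, with the highest KO level well under the lowest WT level (adjusted p = 0.132). Sdhc was at 143, 226 and 171 CPM in WT and at 82.8, 140.1 and 102 CPM in KO. Its KO 2 level came just under WT 1, as for Sdhb (adjusted p = 0.214).

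Complex III, the cytochrome bc1 complex, had a median log2 ratio of -0.87 over 8 genes, all negative. Of these, 4 were lower at an unadjusted p under 0.05 (50.0%, beside 12.3% of all genes tested). The same number had separate groups (50.0%, beside 17.3%). Uqcrc2, a core protein on the matrix side, had the smallest p, with 136, 262 and 195 CPM in WT and 73.6, 105 and 76.1 CPM in KO. The groups did not overlap, and the log2 ratio was -1.22 ± 0.332 (adjusted p = 0.111). Its partner Uqcrc1 was at 192, 428 and 282 CPM in WT and at 137, 173 and 121 CPM in KO, with a log2 ratio of -1.07 ± 0.376 (adjusted p = 0.157).

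Uqcrfs1, the Rieske iron-sulfur protein, was at 178, 306 and 199 CPM in WT and at 89.5, 148 and 144 CPM in KO, again without overlap (log2 ratio -0.84 ± 0.348, adjusted p = 0.198). The small accessory subunits spread widely. Uqcrb was lowest of the complex at -1.38 ± 0.461, with 131, 205 and 111 CPM in WT and 27.5, 87.1 and 57.0 CPM in KO. Uqcrh, the hinge protein next to cytochrome c1, was nearest to 0 at -0.26 ± 0.460, with 246, 365 and 181 CPM in WT and 109, 284 and 267 CPM in KO; its sign turned without WT 2 (0.03) and without KO 1 (0.07).

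Complex IV, cytochrome c oxidase, is described by the kind of subunit. The 11 ubiquitous subunits had a median log2 ratio of -0.98, with 10 negative. Of them, 6 were lower at an unadjusted p under 0.05 (54.5%, beside 12.3% of all genes tested). Lower groups without overlap were found for 7 (63.6%, beside 17.3%). The 5 tested isoforms known from particular tissues or conditions had a median of 0.57, with 4 positive. Of these isoforms, Cox4i2, Cox8b and Ndufa4l2 had low counts, and Cox7a1 had the lowest ratio of all members, -2.71. Cox5a, a subunit bound on the matrix side (ENSMUSG00000000088, chr9:57521274-57532426, GRCm38), had the smallest p of all members. It was at 166, 283 and 195 CPM in WT and at 48.9, 103 and 69.3 CPM in KO, a mean 2.91 times higher in WT.

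All 3 KO levels of Cox5a lay below the lowest WT level, with a gap larger than the spread of the KO libraries, and its log2 ratio was -1.54 ± 0.377 (adjusted p = 0.101). Cox6a1, the highest member per length in WT, was at 583, 858 and 575 CPM in WT and at 159.8, 365 and 228 CPM in KO (log2 ratio -1.42 ± 0.427, adjusted p = 0.127). Cox8a, a small membrane subunit, was at 465, 662 and 411 CPM in WT and at 147, 334 and 257 CPM in KO (log2 ratio -1.06 ± 0.416, adjusted p = 0.183).

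Cox4i1, the largest nuclear subunit of the complex and the one that binds ATP, differed less. It was at 669.5, 883 and 521 CPM in WT and at 235, 695 and 485 CPM in KO, so KO 2 lay inside the WT range and KO 3 just under it (log2 ratio -0.55 ± 0.482, adjusted p = 0.510). Ndufa4 was the only ubiquitous complex IV gene with a positive ratio, 0.47 ± 0.368 (adjusted p = 0.461). Its levels were 125, 112 and 77.7 CPM in WT and 86.9, 196 and 153 CPM in KO, with KO 1 inside the WT range.

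Complex V, ATP synthase, had a median log2 ratio of -0.98, and all 17 tested genes were negative. Of these, 5 were lower at an unadjusted p under 0.05 (29.4%, beside 12.3% of all genes tested). Separate groups were found for 7 (41.2%, beside 17.3%). Atp5b, the catalytic beta subunit, was at 807, 1615 and 1137 CPM in WT and at 469, 547 and 454 CPM in KO, a mean 2.42 times higher in WT. The 3 KO libraries were close together here, with an SD of 49.9 CPM against 406 CPM in WT, and the log2 ratio was -1.28 ± 0.407 (adjusted p = 0.135).

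Atp5a1, the alpha subunit that alternates with beta in the F1 head, was at 719, 1543 and 1088 CPM in WT and at 488, 639 and 496 CPM in KO (log2 ratio -1.05 ± 0.422, adjusted p = 0.191). Atp5d, the delta subunit of the central stalk, had the smallest p of the complex, with 252, 501 and 334 CPM in WT and 127, 205 and 131 CPM in KO (log2 ratio -1.23 ± 0.386, adjusted p = 0.132). Both genes had separate groups.

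The peripheral stalk, which holds the F1 head still, had a median of -0.69 over its 4 tested genes and no gene at an unadjusted p under 0.05. At the other end of complex V, Atp5l, a membrane subunit of the dimer interface, was at 167, 185 and 130.2 CPM in WT and at 74.4, 203 and 180.4 CPM in KO (log2 ratio -0.08 ± 0.411, and 0.07 with upper-quartile scaling, 0.02 without WT 2 and 0.26 without KO 1). Near-identical copies elsewhere in the genome held 23.4% of the reads of Atp5l and its copies together, so its value is uncertain. The same share was above 10% for Atp5h, Atp5g1, Ndufs3, Ndufc1 and Ndufa12, up to 51.7% for Ndufc1. Atpif1, the inhibitor of complex V and not a member, was at 41.8, 98.1 and 43.2 CPM in WT and at 30.9, 47.8 and 49.6 CPM in KO (log2 ratio -0.51 ± 0.400, adjusted p = 0.459).

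**Figure D2:**
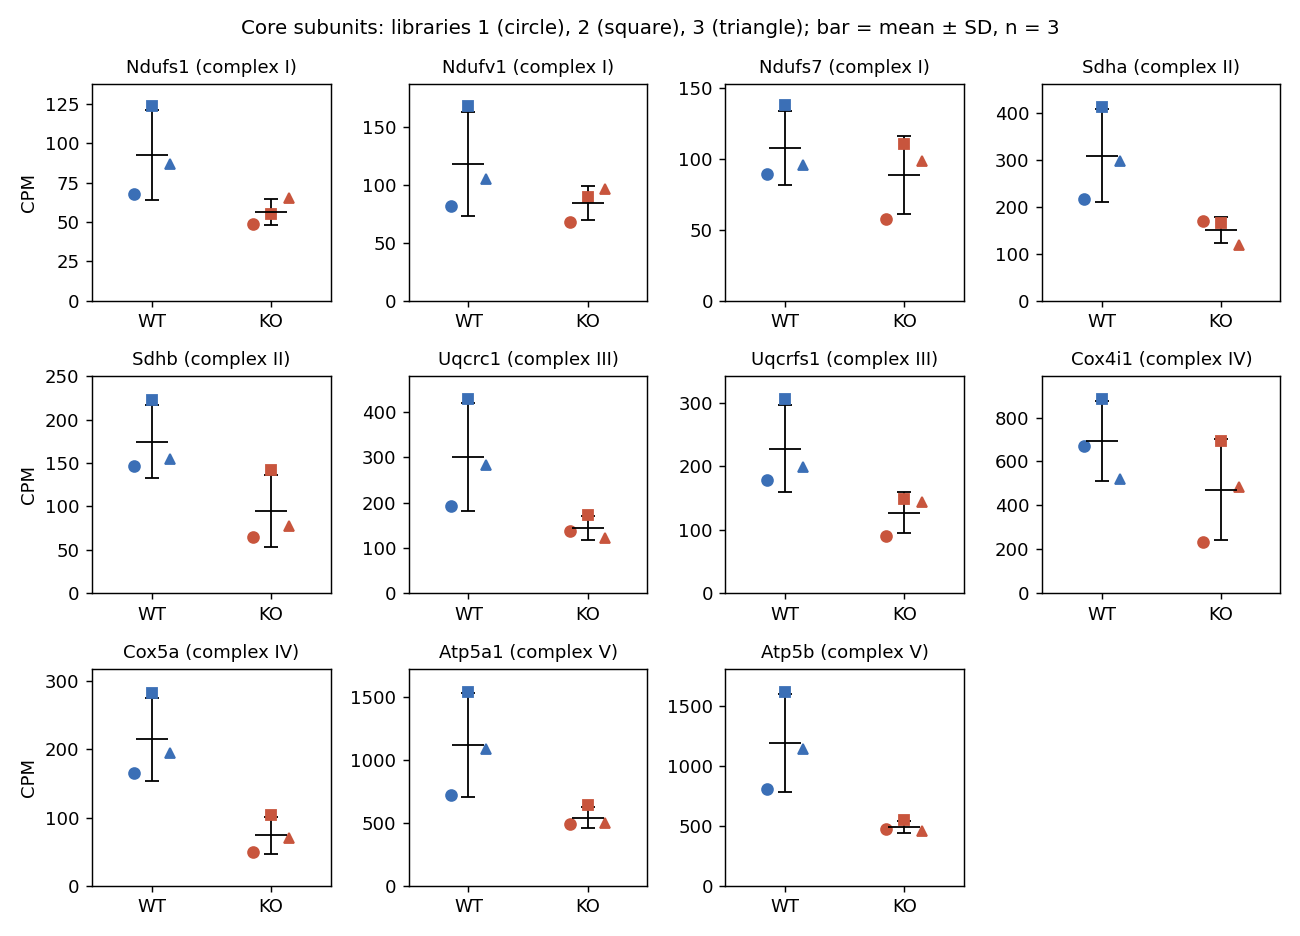
CPM of 11 core subunits in each library, with circles, squares and triangles for libraries 1, 2 and 3, and the mean ± SD over 3 libraries as a black bar; every y axis starts at 0. Atp5b, Cox5a, Sdha and Uqcrc1 show KO libraries below all WT libraries, while Ndufs7, Ndufv1 and Cox4i1 overlap.

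**Figure D3:**
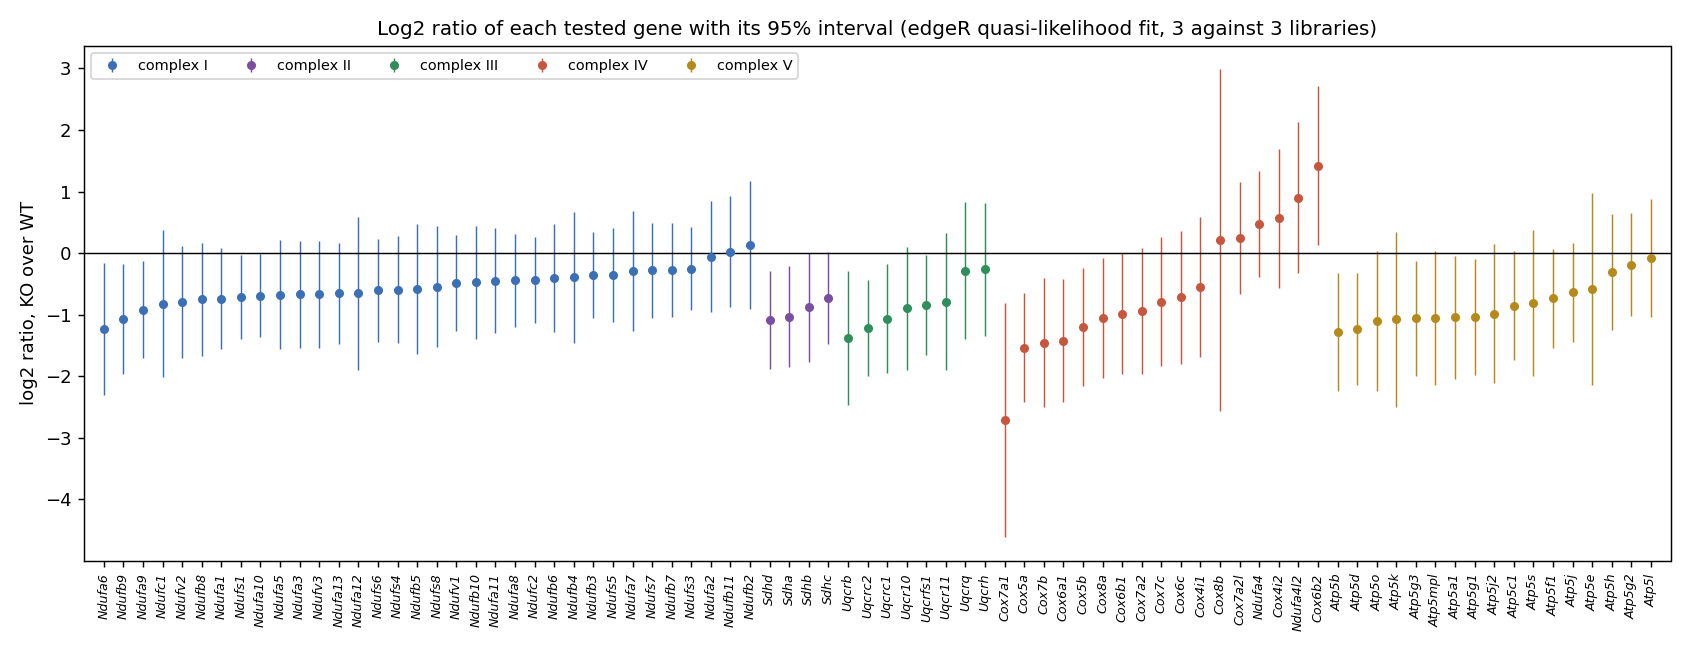
Log2 ratio of KO over WT for the tested genes, leaving out 1 that is not reported, sorted within each complex, with 95% intervals from the edgeR fit. Most points lie under 0, and most intervals cross it; 6 of the plotted genes above 0 belong to complex IV.

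On a per-length scale (CPM per kilobase of the gene length in the table), the mean levels in WT had a median of 152 for complex III, 149 for complex IV, 100.1 for complex V, 76.5 for complex II and 62.8 for complex I. The range within each complex was wider than the differences between complexes, from 1.88 to 957 within complex IV. In KO the medians were 86.4, 69.5, 54.2, 39.5 and 44.5 for complexes III, IV, V, II and I, so complex II was above complex I in WT and below it in KO. The highest members per length in WT were Cox6a1 at 957, Cox8a at 940.3, Cox4i1 at 446, Cox6b1 at 365 and Atp5a1 at 356. Across the 81 members, the log2 ratio had a Spearman correlation of -0.33 with mean CPM and of -0.07 with gene length; these are descriptions over genes of the same libraries.

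Complex IV has alternative genes for several subunits, each known from particular tissues or conditions. Cox7a1, the isoform known from heart and skeletal muscle (ENSMUSG00000074218, chr7:30184144-30186078), had the lowest log2 ratio of all members, -2.71 ± 0.810 (adjusted p = 0.126). It had 187, 524 and 158 reads in WT and 17, 95 and 24 reads in KO, or 11.1, 33.2 and 9.32 CPM and 0.84, 5.43 and 1.87 CPM. All KO libraries were below all WT libraries, and WT 2 stood well above WT 1 and WT 3.

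The widespread isoform Cox7a2 was at 193, 258 and 169.7 CPM in WT and at 55.8, 169 and 97.5 CPM in KO (log2 ratio -0.95 ± 0.436, adjusted p = 0.236). KO 2 lay just under WT 3. Cox7a2l, a related protein that joins complexes III and IV into supercomplexes, had a positive ratio. It was at 173, 245 and 136 CPM in WT and at 132, 265 and 261 CPM in KO (log2 ratio 0.24 ± 0.389, adjusted p = 0.728).

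Cox6b2, known as a testis isoform (ENSMUSG00000051811, chr7:4751792-4753094), was the only member higher at an unadjusted p under 0.05. It had 134, 27 and 85 reads in WT and 303, 245 and 134 reads in KO, or 7.96, 1.71 and 5.01 CPM and 15.0, 14.0 and 10.4 CPM. The lowest KO level lay above the highest WT level, and the log2 ratio was 1.42 ± 0.552 (adjusted p = 0.178). The 7 testis germ cell markers, fixed as a list, summed to at most 0.777 CPM in any library. Its widespread counterpart Cox6b1 was at 237, 336 and 203 CPM in WT and at 74.6, 191 and 127 CPM in KO (log2 ratio -0.98 ± 0.415, adjusted p = 0.206).

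Cox4i2 and Ndufa4l2, isoforms known for induction by low oxygen and for expression in pericytes, were low throughout. Cox4i2 had 17, 33 and 31 reads in WT and 45, 52 and 27 reads in KO, or 1.01, 2.09 and 1.83 CPM and 2.22, 2.97 and 2.10 CPM (log2 ratio 0.57 ± 0.480, adjusted p = 0.498). The groups were separated by a margin far smaller than the spread within either. Ndufa4l2 had 25, 22 and 56 reads in WT and 103, 65 and 35 reads in KO, with overlapping levels (log2 ratio 0.90 ± 0.522, adjusted p = 0.329). Of the 7 pericyte markers, 6 were tested, all positive, and their summed level was 306 to 686 CPM in WT and 981 to 2448 CPM in KO; their part in these values was not tested.

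The other muscle and testis isoforms were at or near 0. Cox6a2, the muscle counterpart of Cox6a1, had 1 to 9 reads per library and was not tested. Cox7b2 and Cox8c had no read in any library, which allows up to 0.148 to 0.233 CPM at a floor of 3 reads, counting error only. Cox8b had 33, 9 and 11 reads in WT and 18, 48 and 0 reads in KO, too few to give a direction (log2 ratio 0.21 ± 1.183). A second row for Atp5o also had no read.

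**Figure D4:**
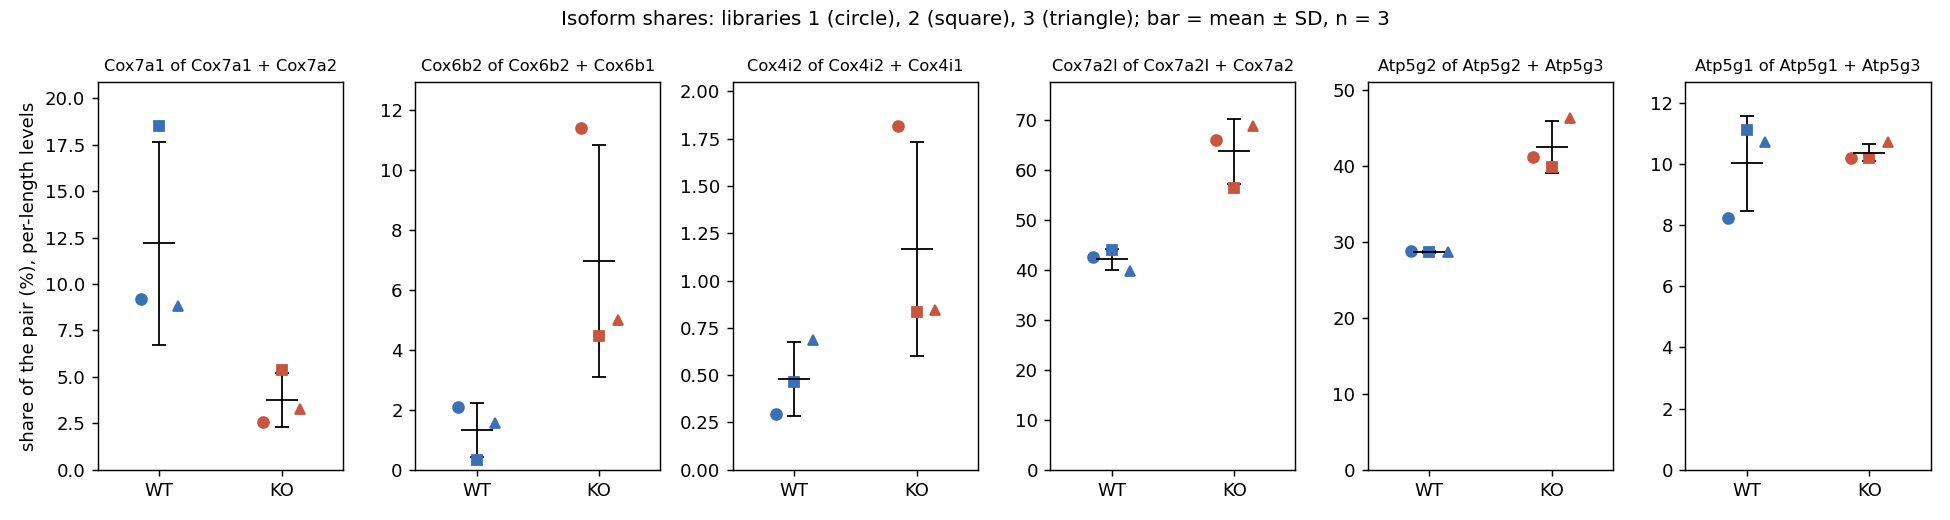
Share of the gene named first in the per-length level of a pair of genes, in percent, for each library (circle, square and triangle for libraries 1, 2 and 3), with the mean ± SD over 3 libraries as a black bar; every y axis starts at 0. Shares of Cox7a2l and Atp5g2 are higher in all KO libraries, the share of Cox7a1 is lower, and that of Atp5g1 overlaps.

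Shares within a pair compare genes inside 1 library and so do not depend on the scaling of the libraries. The genes Atp5g1, Atp5g2 and Atp5g3 encode the same mature c subunit, whose ring turns in the membrane. Atp5g2 made up 28.8%, 28.6% and 28.6% of the per-length level of Atp5g2 and Atp5g3 in WT, and 41.2%, 39.8% and 46.3% in KO. The WT shares were close to each other (SD 0.120, n = 3) although both genes were far higher in WT 2 than in WT 1 and WT 3, and the KO shares all lay above them. Atp5g3 itself was at 372, 628 and 401 CPM in WT and at 151, 299.6 and 221 CPM in KO (log2 ratio -1.06 ± 0.398, adjusted p = 0.170).

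Atp5g2 was at 115, 193 and 124 CPM in WT and at 81.3, 152 and 147 CPM in KO (log2 ratio -0.19 ± 0.355, adjusted p = 0.775), and its ratio was 0.06 without WT 2 and also without KO 1. Its promoter window holds the NRF1 letters and that of Atp5g3 the ERR letters, as printed above. Any link of these letters to the levels was not tested. Atp5g1 was at 75.1, 177 and 109 CPM in WT and at 38.8, 76.5 and 59.8 CPM in KO, and its share of Atp5g1 and Atp5g3 was 10% ± 1.57 in WT and 10.4% ± 0.297 in KO (SD, n = 3). That share overlapped between the groups, with the reserve that copies held 25.0% of the reads of Atp5g1 and its copies.

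Cox7a2l made up 42.5%, 43.9% and 39.8% of the per-length level of Cox7a2l and Cox7a2 in WT, and 66.0%, 56.3% and 68.8% in KO. The share of Cox7a1 in Cox7a1 and Cox7a2 was 9.21%, 18.5% and 8.83% in WT and 2.59%, 5.38% and 3.26% in KO. For Cox6b2 in Cox6b2 and Cox6b1 it was 2.10%, 0.324% and 1.55% in WT and 11.4%, 4.47% and 4.99% in KO. For Cox4i2 in Cox4i2 and Cox4i1 it was 0.296%, 0.463% and 0.685% in WT and 1.82%, 0.835% and 0.845% in KO.

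The shares of these 5 pairs did not overlap between the groups, each with a two-sided exact permutation p of 0.100, the smallest that 3 libraries against 3 can give, and 0.180 after Benjamini-Hochberg adjustment over the 9 pairs computed. The other pairs, Cox6a2 with Cox6a1, Cox8b with Cox8a, Ndufa4l2 with Ndufa4 and Atp5g1 with Atp5g3, overlapped.

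The 13 subunits encoded in mitochondrial DNA had ratios mostly of the other sign. Of the 12 tested, 10 had a positive log2 ratio and the median was 0.46, beside -0.69 for the nuclear members. Their sum was 40177, 39364 and 33886 CPM in WT and 31634, 45712 and 128791 CPM in KO. KO 3 stood apart, with 12.8% of its counts from the mitochondrial chromosome against 3.53% to 4.88% in the others. By the summed CPM, KO 1 lay below the WT range and KO 2 above it.

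The ratio of the mitochondrially encoded sum to the nuclear sum was 3.21, 2.01 and 2.67 in WT and 5.49, 3.9 and 14.8 in KO. Every KO library was above every WT library, also for complex I alone (2.71 to 4.31 in WT, 5.18 to 11.6 in KO), complex III alone (2.70 to 4.23 and 5.66 to 29.6) and complex IV alone (4.37 to 6.06 and 7.18 to 31.3). Among the 6 libraries KO 1 had the lowest nuclear sum and KO 3 the highest mitochondrial sum. The ratios for complex V overlapped. These ratios were not tested.

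Within complex IV, mt-Co1 supplied nearly all of the mitochondrial sum, at 22220, 21714 and 17887 CPM in WT and 14751, 22541 and 70315 CPM in KO. mt-Co2, which encodes another catalytic subunit, was at 78.8 to 404 CPM. No source used here says how reads that map to several places were treated, which limits any comparison of levels between mitochondrial genes. mt-Nd3, a core subunit of complex I, was the only mitochondrial gene lower at an unadjusted p under 0.05, with 17, 15.8 and 16.2 CPM in WT and 1.73, 4.52 and 4.12 CPM in KO (edgeR, log2 ratio -2.24 ± 0.428, adjusted p = 0.0940).

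**Figure D5:**
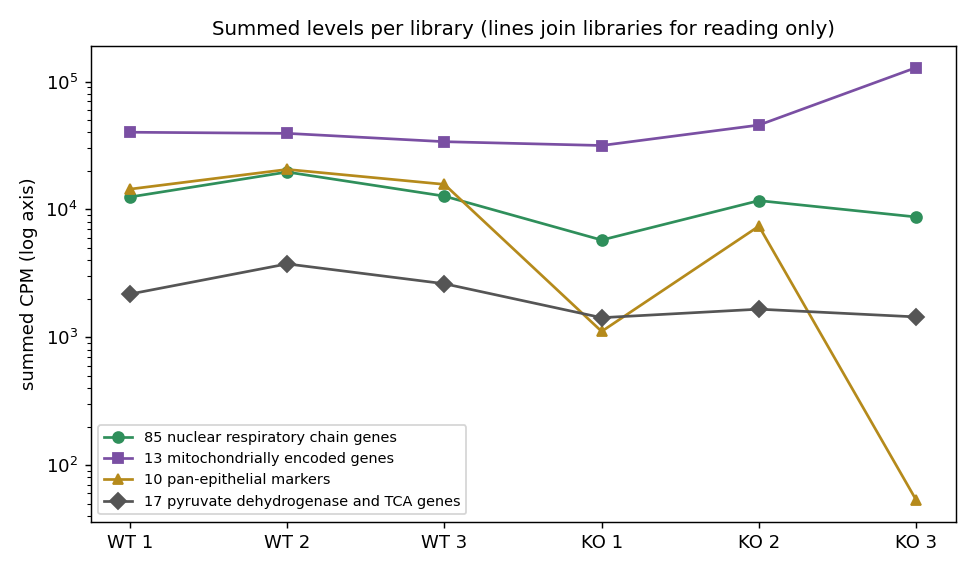
Summed CPM on a log axis in each library for the 85 nuclear respiratory chain genes, the 13 mitochondrially encoded genes, 10 pan-epithelial markers and 17 genes of pyruvate dehydrogenase and the TCA cycle; lines join libraries only to guide the eye. The nuclear sum is lowest in KO 1 at 5763 CPM, the epithelial sum is lowest in KO 3 at 53.3 CPM, and the mitochondrial sum is highest in KO 3.

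Levels of cell type markers also differed between the labels, and in bulk tissue fewer cells of a type and less RNA per cell cannot be told apart. All 10 pan-epithelial markers had negative ratios, 9 of them with groups that did not overlap (beside 17.3% of all genes). Only 1 of the 10 was lower at an unadjusted p under 0.05 (beside 12.3% of all genes tested). Adjusted p-values of these markers lay between 0.197 and 0.530. The sum of the markers was 14415, 20561 and 15709 CPM in WT and 1111, 7403 and 53.3 CPM in KO. Krt8, an epithelial keratin, was at 12.1 CPM in KO 3, and no marker of the list was at 0. KO 3 had the lowest epithelial sum, and KO 1 had the lowest level for 69 of 81 respiratory members (beside 13.9% of all genes). The nuclear respiratory sum was 19612 CPM in WT 2 and 8731 CPM in KO 3. In both sums all 3 KO libraries lay below all 3 WT libraries, and their relation was not tested.

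The 10 absorptive colonocyte markers summed to 4228 to 7254 CPM in WT and 74.4 to 1751 CPM in KO, and 1 of them was at 0 in KO 3. The 8 neutrophil markers summed to 10.8 to 441 CPM in WT and 1244 to 7363 CPM in KO. The 8 fibroblast markers summed to 1485 to 2572 CPM in WT and 4229 to 6844 CPM in KO. Smooth muscle markers overlapped, with 3298 to 4743 CPM in WT and 1585 to 5558 CPM in KO, as did skeletal and cardiac muscle markers, with 15.5 to 36.8 and 12.5 to 122 CPM. The part of these cell types in the respiratory values was not tested.

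Related mitochondrial genes outside the rule were described by lists chosen with earlier results of these data known. Cyc1, the nuclear gene of cytochrome c1 in complex III, was at 139.7, 332 and 221 CPM in WT and at 74.8, 106 and 81.1 CPM in KO (log2 ratio -1.40 ± 0.380, adjusted p = 0.111). Of 17 genes of pyruvate dehydrogenase and the TCA cycle, 16 had negative ratios, with a median of -0.47. At an unadjusted p under 0.05, 6 were lower (35.3%, beside 12.3% of all genes tested). Cs, citrate synthase, was at 610.5, 821 and 555 CPM in WT and at 155, 267 and 113 CPM in KO (log2 ratio -1.89 ± 0.433, adjusted p = 0.0983). Suclg2, a subunit of succinyl-CoA synthetase, had a log2 ratio of -1.78.

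Of the 9 electron carriers and entry points tested, 6 were negative, with a median of -0.66. At an unadjusted p under 0.05, 4 were lower (44.4%, beside 12.3% of all genes tested). Gpd2, which feeds electrons from glycerol 3-phosphate to coenzyme Q, was at 97.2, 67.5 and 97.8 CPM in WT and at 35.7, 52.9 and 25.3 CPM in KO (log2 ratio -1.20 ± 0.332, adjusted p = 0.113). Etfdh, which does so from fatty acid oxidation, and Sqor, which does so from sulfide, had log2 ratios of -0.88 and -1.33. Of 10 coenzyme Q synthesis genes, 5 were lower at an unadjusted p under 0.05 (50.0%, beside 12.3% of all genes tested). The median was -0.65, with 9 below 0. The smallest p values belonged to Coq9 at -1.42, Coq5 at -0.91 and Pdss2 at -1.17.

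Of 44 tested assembly factors, 30 were negative, with a median of -0.31, and 5 were lower at an unadjusted p under 0.05 (11.4%, beside 12.3% of all genes tested). The smallest p values belonged to Cox17, Cox15 and Sco1, which deliver copper or heme A to complex IV. Cox17 was at 9.03, 9.43 and 5.72 CPM in WT and at 3.16, 3.09 and 2.56 CPM in KO (log2 ratio -1.45 ± 0.376, adjusted p = 0.107). For 77 mitochondrial ribosomal protein genes the median was -0.10 and 48 ratios were negative; 1 gene was lower and 1 higher at an unadjusted p under 0.05. For 17 glycolysis genes the median was -0.33 and 12 ratios were negative; Hk1 was at -1.18 and Hk2 at -2.00, while the lactate exporter Slc16a3 was at 1.24.

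Regulators of mitochondrial biogenesis split. Of 18 tested, 7 were negative and the median was 0.08. At an unadjusted p under 0.05, 5 were lower (27.8%, beside 12.3% of all genes tested). Ppargc1a, which encodes the coactivator PGC-1α, was at 11.9, 55.3 and 23.5 CPM in WT and at 4.05, 2.97 and 2.33 CPM in KO (log2 ratio -3.27 ± 0.608, adjusted p = 0.0940). WT 2 was highest for it as for most members, and all 3 KO libraries lay below all 3 WT libraries. Esrrg was at 5.11, 11.3 and 5.31 CPM in WT and 1.43, 0.400 and 0.466 CPM in KO, and Ppargc1b had a log2 ratio of -2.12.

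The factors whose motifs were searched also split; they fall outside the rule for named genes and were chosen after their values were seen. Esrra, an ERR receptor, was at 211, 294 and 198 CPM in WT and at 43.1, 115 and 30.4 CPM in KO (log2 ratio -1.90 ± 0.529, adjusted p = 0.115). Nrf1 was at 35.4, 23.9 and 27.3 CPM in WT and at 29.7, 25.7 and 32.3 CPM in KO, a log2 ratio of 0.02. Gabpa had a ratio of 0.26 and Yy1 of -0.05, both with overlapping groups. Any part of these factors in the member values was not tested.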

How the data were processed

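Values are the authors' deposited whole-number counts, 1 column per library. Per the labels' protocols, adaptors were trimmed and reads with poly-N or low quality were dropped before counting. The submitters' processing notes list featureCounts 1.5.0-p3, HISAT2 2.0.5, DESeq2 and StringTie 1.3.3b, with builds GRCm38 and mm10, and give no roles. The other column used is the deposited gene length in bases, for per-length levels. No source used here gives the annotation release, the strand setting or the treatment of multi-mapping reads. All 85 member identifiers were found in GENCODE M21 (GRCm38), 79 with the same start and end, and 30 share exon bases with another gene.

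All 6 libraries were fitted on the whole table in R 4.3.3 with edgeR 4.0.16: filterByExpr (minimum count 10, minimum total 15), TMM scaling, robust quasi-likelihood F test without covariates, Benjamini-Hochberg adjustment over 16861 genes, threshold 0.05. Adjusted p-values come from this test unless another is named. SE and 95% intervals are from the same fit. Deviations use log2(CPM + 0.5). Near-identical copies were searched with blastn 2.17.0 (at least 95% identity over 100 bases); 24 members with reads had one. Alternatives were RLE and upper-quartile scaling, other filters, a replicate block, DESeq2 1.42.0, limma 3.58.1 (voom, with and without quality weights), nuclear protein-coding genes only and each library left out; leaving out WT 2 and KO 1 together was added after seeing the data.

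Members and lists were chosen with earlier results of these data known. Members named with values in each library are 11 core subunits, the lowest, the highest and the smallest-p gene of each complex, isoform pairs and Atpif1; from each pathway list up to 3 genes with the smallest p are named. One core subunit and 1 pathway gene that the rule names are not reported here.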

Additional observations from a re-analysis of the deposited data

How the results depend on the processing

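The median log2 ratio of the members was negative in all 16 alternatives, between -0.20 (without WT 2 and KO 1) and -1.07 (without KO 2), against a spread of 0.453 (SD) between library medians. The number of genes past the adjusted threshold was 192 with no filter on low counts, 3 with the replicate block, 2029 with DESeq2, 1395 with limma-voom with quality weights, and 0 to 1813 when libraries were left out. The number at an unadjusted p under 0.05 was 1983 to 5461 when libraries were left out. Members past the adjusted threshold numbered 7 of 82 with DESeq2 and 5 of 81 with quality weights. With libraries left out, they numbered 0 to 10 of 81, the 10 without KO 2. Members lower at an unadjusted p under 0.05 numbered 37 with quality weights (45.7%, beside 15.4% of all genes). With libraries left out, they numbered from 1 (1.23%, beside 5.68%) to 46 (56.8%, beside 17.4%). Members higher numbered 0 to 1. Members without overlap numbered 20 of 81 with upper-quartile scaling and 32 of 81 with RLE scaling. When libraries were left out, members without overlap numbered 30 to 58, the 58 without KO 2. The share of all genes without overlap was not computed in these settings. With the scaling unchanged, leaving out a library can only keep or raise this count, so these counts cannot show a loss of separation. Upper-quartile scaling moved the median of all genes from 0.06 to 0.21, with 1691 genes lower and 2673 higher at an unadjusted p under 0.05, against 2067 and 1992; limma-voom gave 2399 and 1701.

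Of 543 values of the 34 named members, 512 kept direction and side of the threshold, 14 passed it and 17 changed sign, in 5 genes; 29 genes never changed sign. Atp5l was 0.07 with upper-quartile scaling, and Cox8b was -0.59 with the replicate block, -0.81 with limma-voom and -0.23 with quality weights. When libraries were left out, Atp5l ran from -0.37 to 0.37, Atp5g2 from -0.37 to 0.33, Uqcrh from -0.52 to 0.38, Ndufs7 from -0.51 to 0.18 and Cox8b from -1.22 to 0.99. The causes were not tested. Same-numbered libraries deviated together with r of -0.20, 0.09 and -0.08. These values do not show a pairing by number, and 3 libraries per group cannot exclude it. In the replicate block fit 29 members were lower at an unadjusted p under 0.05 (35.8%, beside 11.7% of all genes). The median log2 ratio of the members in that fit was -0.73. Low counts limit Cox4i2, Cox6a2, Cox8b and Ndufa4l2.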
